A study of Rattus norvegicus with 20 samples.

Results

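The genes described here are the enzymes that split triglyceride and other neutral lipids in fat tissue, together with the proteins that handle lipoprotein lipase outside or on its way out of the cell. They were taken from the gene count table by name: Lpl, Lipg, Lipe, Mgll, Pnpla2, Pnpla3, Ces1d, Gpihbp1, Angptl4 and Lmf1, which are 10 of the 32545 rows. All 10 were among the 17653 genes kept for testing after genes with no read in 10 or more of the 20 libraries were removed. RNA was sequenced from inguinal white adipose tissue (iWAT), the subcutaneous fat pad of the groin, of 5 male ZSF1 rats in each of 4 groups. Cmpd 1 rats were ZSF1 obese animals, homozygous for a leptin receptor deficiency, that ate a high-carbohydrate chow containing an inhibitor of the kinases PKCα and PKCβ. Food matched rats were ZSF1 obese animals on the same chow without drug, offered each week the amount that the Cmpd 1 rats had eaten the week before. Obese rats were ZSF1 obese animals on drug-free chow without restriction, and Lean rats were ZSF1 lean animals on the same drug-free chow. Rats were 21 to 22 weeks old when the study began and the study ran for 10 weeks. The phenotype field of the Food matched samples reads lean, whereas their titles and the study design make them obese; the titles were followed. Because all obese animals carry the receptor deficiency, obesity and the receptor deficiency cannot be told apart in any comparison with Lean.

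Fat cells take up and release fatty acids through separate sets of lipases. Lipoprotein lipase, encoded by Lpl, is folded in the endoplasmic reticulum with the help of lipase maturation factor 1 (Lmf1), secreted, carried to the capillary lumen and held there by GPIHBP1, where it splits the triglyceride of circulating lipoproteins, while ANGPTL4 inactivates it. Inside the fat cell, stored triglyceride is broken down in steps by adipose triglyceride lipase (Pnpla2), hormone-sensitive lipase (Lipe) and monoacylglycerol lipase (Mgll), with a further contribution from the carboxylesterase Ces1d.

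Counted reads per library lay between 31716457 and 65759306 in Cmpd 1, 54649679 and 74784655 in Food matched, 56743417 and 70206686 in Obese and 50604956 and 68048796 in Lean rats. Lepr, the leptin receptor gene, reached 1.24 to 2.32 CPM (counted reads scaled to the effective library size) across the 3 obese groups, against 2.95 to 11.99 CPM in Lean rats, without overlap. The adipocyte markers Adipoq and Plin1 were high in every library, with at least 2761 and 1335 CPM. Lean rats 1 and 2 stood apart: the summed level of 9 skeletal muscle markers was 3345 and 5854 CPM in them, against 23.1 to 25.9 CPM in the other Lean rats and at most 94.3 CPM in the obese groups. The Obese versus Lean values of Lpl, Angptl4, Gpihbp1, Mgll and Pnpla3 are given with and without these libraries. Most other values against Lean are given only with them. Shares of all genes are given over the 17653 genes tested. The threshold was an adjusted p under 0.05 and a fold over 1.5 in edgeR's quasi-likelihood test. It was passed by 22.3% of these genes in Obese versus Lean, 6.19% in Cmpd 1 versus Food matched and 3.53% in Cmpd 1 versus Obese. The share was 0% in Food matched versus Obese, 16.6% in Cmpd 1 versus Lean and 25.3% in Food matched versus Lean.

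The 10 genes took between 1.17% and 1.78% of all counted reads, and Lpl alone took 0.754% to 1.13%. Per kilobase of gene length, Lpl ranked first in each group, with a mean of 2546 RPKM in Cmpd 1, 2527 in Food matched, 2955 in Obese and 2570 in Lean rats. Ces1d and Mgll followed, in that order in Cmpd 1 (614 and 511 RPKM) and Lean rats (1641 and 473 RPKM) and in the other order in Food matched and Obese rats. Lipe and Angptl4 came next at group means of 229 to 429 RPKM, then Gpihbp1 at 203 to 224, Pnpla3 at 24.6 to 52.9 and Lmf1 at 8.84 to 9.59 RPKM. Lipg and Pnpla2 were counted at under 0.6 RPKM in each group mean. The Pnpla2 row lies in a stretch of the reference that recurs, and its level is uncertain, as described with that gene.

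**Figure D1:**
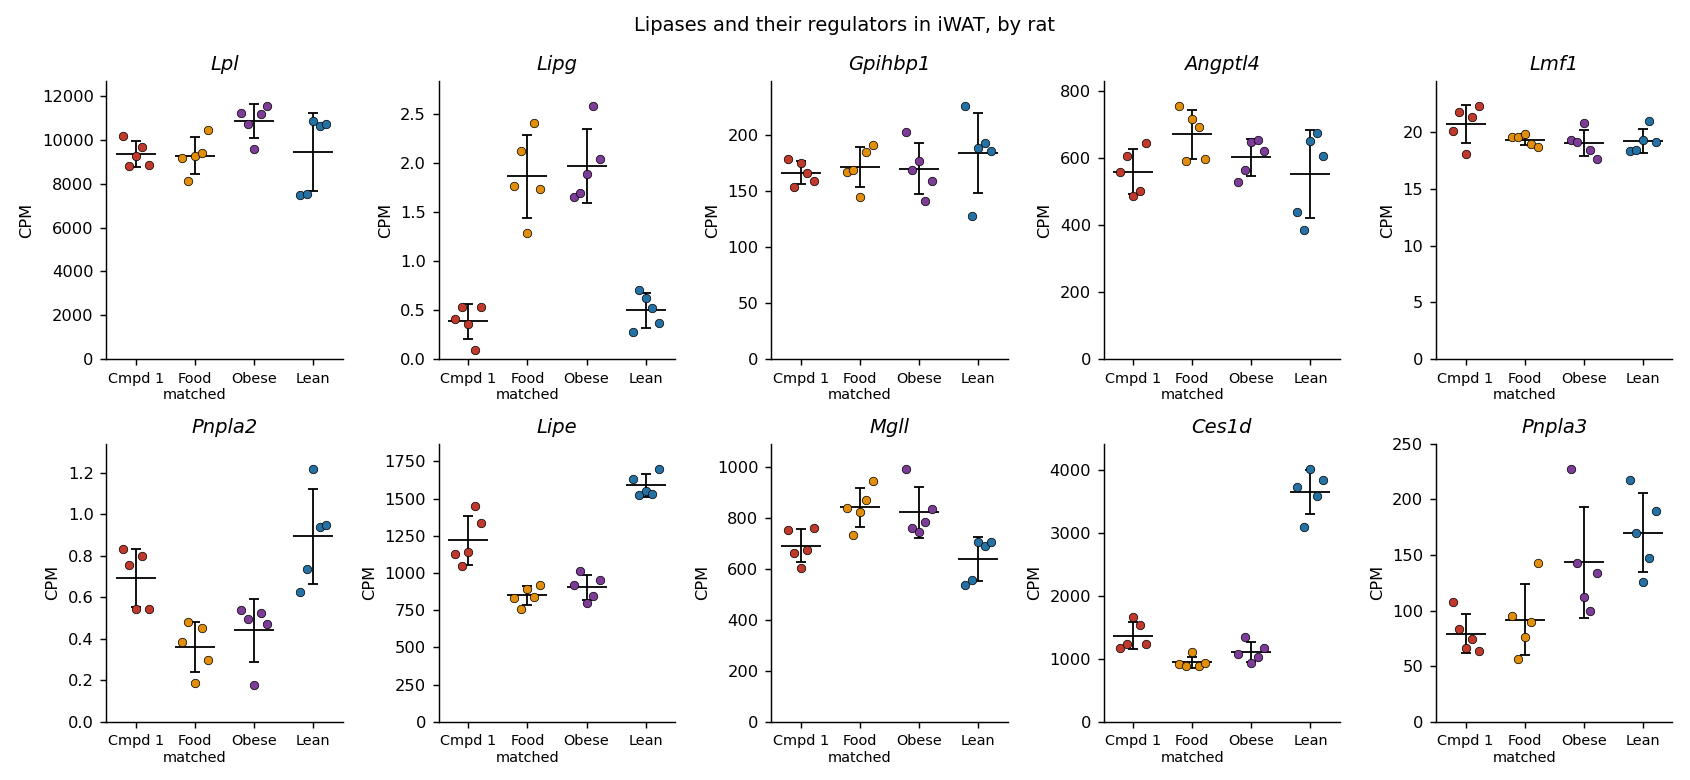
Level of each of the 10 genes in CPM (vertical axes, starting at 0) in the 5 rats of each group; points are rats in the order of their numbers, the horizontal line is the group mean and the bars are 1 SD. Lipg stood at 1.29 to 2.58 CPM in Food matched and Obese rats and at or below 0.707 CPM in Cmpd 1 and Lean rats, and Ces1d was above 3000 CPM only in Lean rats.

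In Obese versus Lean iWAT, 1 of the 10 genes rose (Lipg) and 3 fell (Lipe, Pnpla2, Ces1d), against 22.3% of all genes tested. The median log2 fold change of the 10 was −0.06, beside −0.01 over all genes. In Cmpd 1 versus Food matched, 1 rose (Pnpla2) and 1 fell (Lipg), against 6.19% of all genes, with a median of −0.01 beside 0.01. In Cmpd 1 versus Obese, Lipg and Pnpla3 fell and none rose, against 3.53% of all genes. Food matched versus Obese gave 0 calls among the 10 and 0 (0%) over all genes in edgeR, where 1887 genes had an unadjusted p under 0.05, while DESeq2 called 69 genes and limma-voom 10, and edgeR without Food matched rat 5 called 93. Of the 10 genes, 3 (Lpl, Pnpla3, Ces1d) had an unadjusted p under 0.05, beside 10.7% of all genes, and neither DESeq2 nor limma-voom called any of the 10. Cmpd 1 versus Lean left Pnpla3 and Ces1d lower (2 of 10, against 16.6%), and Food matched versus Lean gave Lipg higher and Lipe, Pnpla2, Pnpla3 and Ces1d lower (5 of 10, against 25.3%). With the adjusted p alone and any fold, 5 of 10 passed in Obese versus Lean (48.2% of all genes) and 5 of 10 in Cmpd 1 versus Food matched (22.8% of all genes). By the same rule 3 of 10 passed in Cmpd 1 versus Obese (14.0% of all genes) and 3 of 10 in Cmpd 1 versus Lean (39.0% of all genes). The comparisons share their groups and are therefore not independent of each other.

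**Figure D2:**
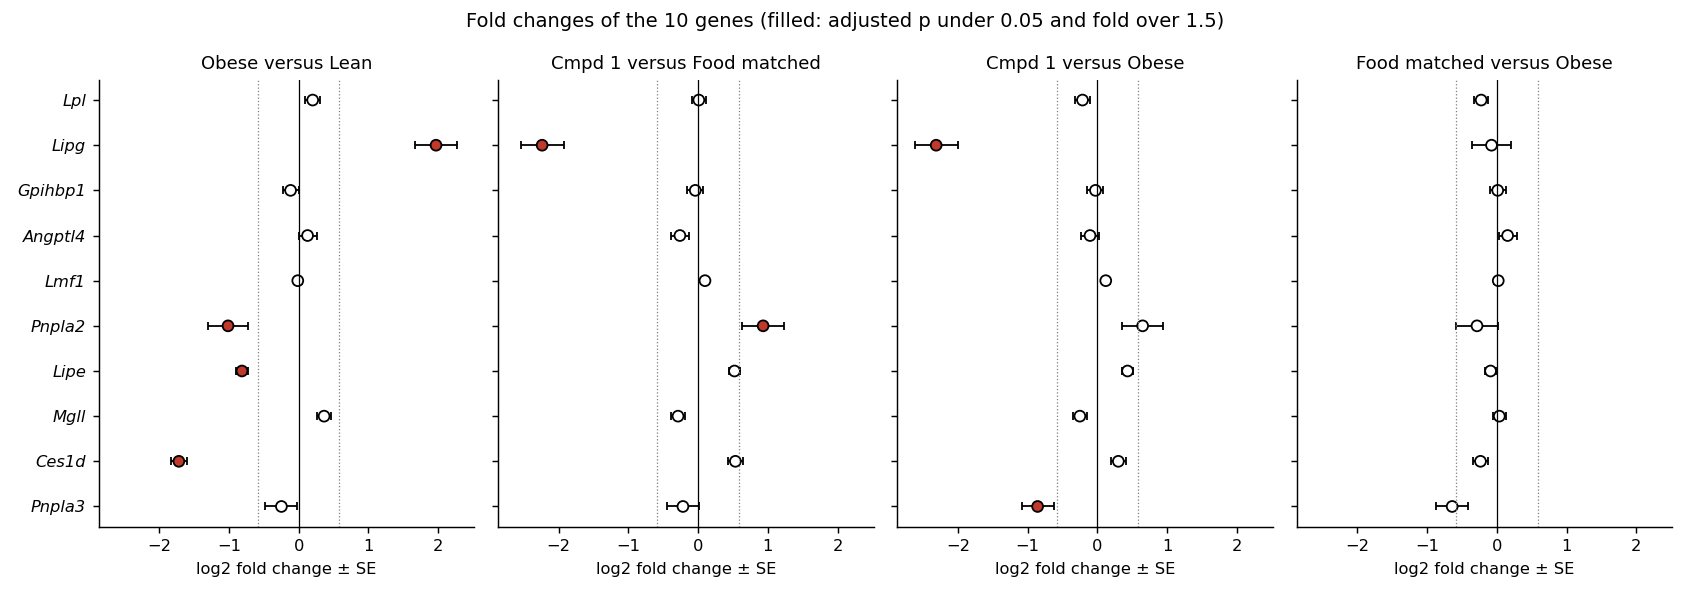
Log2 fold change of each gene in 4 comparisons, with the standard error as bars (horizontal axis); filled points passed an adjusted p under 0.05 and a fold over 1.5, and dotted lines mark that fold. Lipg lay at 1.97 in Obese versus Lean and at −2.24 in Cmpd 1 versus Food matched, while Lpl, Gpihbp1, Angptl4 and Lmf1 stayed inside the dotted lines in all 4 panels.

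Lipg encodes endothelial lipase, a secreted relative of lipoprotein lipase that acts mostly on the phospholipids of high-density lipoprotein. It lies on rn6 chromosome 18, 70901710 to 70924708, minus strand (ENSRNOG00000018694). Because Lipg and Ces1d carried the widest fold changes among the 10 genes, their promoter windows are printed here from RefSeq (assembly GRCr8), 250 bases before to 50 bases after the annotated start, read along the gene. RefSeq's table held such a window for 7 of the 10 genes. The windows are chr18:70811210-70811509 on the minus strand for Lipg and chr19:30046244-30046543 on the plus strand for Ces1d, and capitals mark matches to 4 short motifs searched on both strands: AGGTCA (half-site of nuclear receptors), GTAAACA (forkhead factors), TTGCNNAA (C/EBP factors) and CACGTG (E-box).
Lipg: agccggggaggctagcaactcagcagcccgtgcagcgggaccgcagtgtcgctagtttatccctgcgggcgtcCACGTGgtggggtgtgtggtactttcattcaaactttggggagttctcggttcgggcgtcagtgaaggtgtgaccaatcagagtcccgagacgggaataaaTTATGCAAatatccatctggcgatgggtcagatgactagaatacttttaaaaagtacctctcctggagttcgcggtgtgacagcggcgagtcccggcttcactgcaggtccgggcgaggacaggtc
Ces1d: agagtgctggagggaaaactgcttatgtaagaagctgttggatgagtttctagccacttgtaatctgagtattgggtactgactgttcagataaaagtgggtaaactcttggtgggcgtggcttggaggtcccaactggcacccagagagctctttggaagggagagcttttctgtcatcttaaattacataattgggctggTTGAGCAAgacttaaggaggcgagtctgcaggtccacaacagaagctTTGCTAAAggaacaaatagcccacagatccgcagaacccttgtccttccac
Lipg held 1 E-box, starting 177 bases before the start site, and 1 match to the C/EBP letters on the minus strand, 76 bases before it. Ces1d held 2 matches to the C/EBP letters, starting 48 bases and 1 base before the start site. Of 33469 rat promoter windows of this length, 6.42% held the E-box letters, 10.6% the C/EBP letters, 16.18% the half-site letters and 3.78% the forkhead letters. A match describes the sequence and is not evidence of a bound factor.

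Lipg was at 0.408, 0.536, 0.354, 0.0919 and 0.527 CPM in Cmpd 1 rats, against 1.77, 2.12, 1.29, 2.41 and 1.74 CPM in Food matched rats. It was at 1.65, 1.69, 1.89, 2.58 and 2.04 CPM in Obese rats, against 0.274, 0.707, 0.628, 0.520 and 0.367 CPM in Lean rats. Every Obese and Food matched rat lay above every Cmpd 1 and Lean rat. In edgeR the gene rose 3.92-fold in Obese versus Lean (log2 fold change 1.97, SE 0.30, adjusted p = 1.7e-05). It fell 4.71-fold in Cmpd 1 versus Food matched (−2.24, SE 0.31, adjusted p = 1e-04) and 4.97-fold in Cmpd 1 versus Obese (−2.31, SE 0.31, adjusted p = 0.00033). Cmpd 1 did not differ detectably from Lean (−0.34, SE 0.32, adjusted p = 0.42), nor Food matched from Obese (−0.08, SE 0.28, adjusted p = 0.95). The reads behind these values were few, 3 to 176 per library.

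Markers of other cells moved with some of these groups. The summed level of 10 macrophage markers was 2773 to 3969 CPM in Cmpd 1, 4813 to 7750 in Food matched, 4163 to 5535 in Obese and 1514 to 2092 CPM in Lean rats, with none of the 10 at 0 in any group. That sum was thus higher in every Cmpd 1 rat than in any Lean rat, but single markers differed in direction. In Cmpd 1 versus Lean, 4 of the 10 were called higher and 1 (Cd163) lower, against 16.6% of all genes. At an adjusted p under 0.05 and any fold, 5 were higher and 3 lower, against 39.0% of all genes in either direction. Cd14 (−0.57) and C1qa (−0.31) were the further lower ones on the log2 scale. Adgre1 (−0.17, edgeR adjusted p = 0.16) and Csf1r (0.16, edgeR adjusted p = 0.084) did not pass. Gpnmb alone averaged 1843 CPM in Cmpd 1 and 358.6 CPM in Lean rats. Lipg averaged 0.384 ± 0.181 CPM in Cmpd 1 and 0.499 ± 0.179 CPM in Lean rats (SD, n = 5 each). The part of macrophage content in the Lipg values was not tested. In whole tissue, fewer cells of a type and less RNA per cell cannot be told apart, for this gene and for those that follow.

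Lpl (chromosome 16, 22537056 to 22561496, minus strand) was the most abundant of the 10. It was at 10180, 8785, 9253, 9654 and 8868 CPM in Cmpd 1 rats and at 9158, 8113, 9261, 9388 and 10470 CPM in Food matched rats. Obese rats had 11240, 10740, 9562, 11170 and 11530 CPM, against 7464, 7522, 10870, 10620 and 10700 CPM in Lean rats. The groups overlapped throughout, and the low Lean values belong to the 2 libraries with muscle transcripts. The log2 fold change was 0.01 (SE 0.10, adjusted p = 0.96) in Cmpd 1 versus Food matched and 0.20 (SE 0.10, adjusted p = 0.12) in Obese versus Lean. Without Lean rats 1 and 2, the Lpl value for Obese versus Lean was 0.02 (adjusted p = 0.89 in edgeR).

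Lmf1 (chromosome 10, 14945265 to 15031942), the maturation factor that lipoprotein lipase and endothelial lipase both need, was the steadiest of the 10. Over all 20 rats it stayed between 17.6 and 22.3 CPM. Its means were 20.7 ± 1.69 CPM in Cmpd 1, 19.3 ± 0.488 in Food matched, 19.1 ± 1.17 in Obese and 19.2 ± 1.09 CPM in Lean rats (SD, n = 5 each). The fold change of Lmf1 was 0.10 on the log2 scale in Cmpd 1 versus Food matched (SE 0.06, adjusted p = 0.24) and −0.01 in Obese versus Lean (SE 0.06, adjusted p = 0.88).

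Angptl4 (chromosome 7, 18627808 to 18634079), the secreted inhibitor of lipoprotein lipase that fasting and fatty acids induce, did not pass the threshold in any comparison. It was at 557, 606, 485, 502 and 645 CPM in Cmpd 1 rats, against 754, 590, 715, 693 and 598 CPM in Food matched rats. It was at 527, 564, 646, 654 and 620 CPM in Obese rats, against 440, 384, 651, 674 and 607 CPM in Lean rats. As with Lpl, the low Lean values were those of rats 1 and 2. The log2 fold change of Angptl4 was −0.26 (SE 0.13, adjusted p = 0.17) in Cmpd 1 versus Food matched and 0.13 (SE 0.13, adjusted p = 0.44) in Obese versus Lean. Without Lean rats 1 and 2, Angptl4 in Obese versus Lean came to −0.10 (adjusted p = 0.47), so that even its direction rests on those libraries.

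Gpihbp1 (chromosome 7, 116632506 to 116634293), which capillary endothelial cells make, was at 179, 154, 175, 166 and 159 CPM in Cmpd 1 rats, against 167, 169, 145, 185 and 191 CPM in Food matched rats. It was at 203, 169, 177, 142 and 159 CPM in Obese rats, against 226, 127, 189, 193 and 186 CPM in Lean rats. All groups overlapped and no comparison passed the threshold: the log2 fold change of Gpihbp1 was −0.04 (SE 0.11, adjusted p = 0.85) in Cmpd 1 versus Food matched and −0.12 (SE 0.11, adjusted p = 0.43) in Obese versus Lean. Lean rat 2 was the lowest and Lean rat 1 the highest of their group, and the Obese versus Lean value was −0.22 (adjusted p = 0.053) without rat 2, −0.03 (adjusted p = 0.84) without rat 1 and −0.16 (adjusted p = 0.20) without both. Cmpd 1 versus Lean gave −0.14 (adjusted p = 0.34) for Gpihbp1, and −0.25 (adjusted p = 0.037) without Lean rat 2, under the fold of 1.5. The gene was also set against endothelium within each library, as its log2 CPM minus the mean log2 CPM of the 9 endothelial markers found in the table. That difference was 1.15, 1.13, 1.09, 1.07 and 1.00 in Cmpd 1 rats, against 1.38, 1.32, 1.38, 1.30 and 1.31 in Food matched rats. Every Cmpd 1 rat lay below every Food matched rat, with means of 1.09 ± 0.058 and 1.34 ± 0.039 (SD, n = 5 each) and a difference of −0.25 (2-sided exact permutation test, p = 0.00794, adjusted over 2 comparisons p = 0.00794, the smallest p that 5 against 5 allows).

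In Obese rats the same difference for Gpihbp1 was 1.27, 1.24, 1.22, 1.23 and 1.24, against 1.16, 0.573, 1.11, 1.12 and 0.988 in Lean rats. The groups did not overlap, and Obese exceeded Lean by 0.25 (2-sided exact permutation test, p = 0.00794, adjusted p = 0.00794). Without Lean rat 2, whose muscle markers were highest, the Gpihbp1 difference was 0.14. With the median of the markers in place of their mean, it was 0.03 in Obese versus Lean (exact permutation test, adjusted p = 0.83) and −0.18 in Cmpd 1 versus Food matched (exact permutation test, adjusted p = 0.048). The endothelial markers did not move together. In Obese versus Lean, Tek and Cldn5 fell (−0.80 each), 2 of 9, against 22.3% of all genes. Egfl7 (−0.57), Robo4 (−0.50) and Emcn (−0.43) were lower under the fold of 1.5. At an adjusted p under 0.05 and any fold, 5 of 9 were thus lower and 1 higher, against 48.2% of all genes in either direction. The higher marker was Tie1 (0.18, edgeR adjusted p = 0.024). Cdh5, Kdr and Esam were at −0.15, −0.06 and 0.04, and the list median was −0.43. In Cmpd 1 versus Food matched, Egfl7 rose (0.64), 1 of 9, against 6.19% of all genes. Cldn5 (0.54) and Tek (0.34) were higher under the fold of 1.5. At any fold, 3 of 9 were thus higher at an adjusted p under 0.05 and none lower, against 22.8% of all genes. Gpihbp1 itself gave −0.12 in Obese versus Lean and −0.04 in Cmpd 1 versus Food matched. In Cmpd 1 versus Food matched, most of the difference taken with the marker mean therefore lay in the markers. In Obese versus Lean that difference lay in the markers, and Gpihbp1 itself went the other way. The summed level of the 9 was 868 to 1056 CPM in Cmpd 1, 747 to 1015 in Food matched, 804 to 1126 in Obese and 1023 to 1158 CPM in Lean rats.

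**Figure D3:**
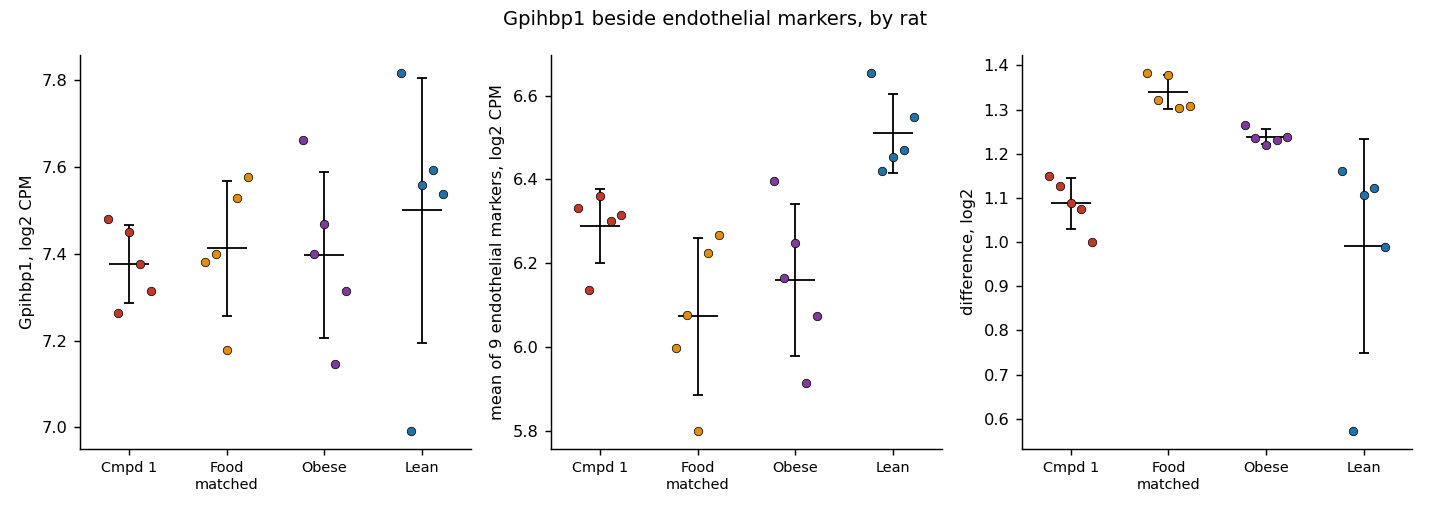
Gpihbp1 in log2 CPM (left), the mean log2 CPM of 9 endothelial markers (middle) and their difference (right), by rat, with group mean and SD; none of the vertical axes starts at 0. The difference was 1.00 to 1.15 in Cmpd 1, 1.30 to 1.38 in Food matched, 1.22 to 1.27 in Obese and 0.573 to 1.16 in Lean rats.

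Ces1d, a carboxylesterase of the endoplasmic reticulum and lipid droplet with triglyceride hydrolase activity in rodent fat, showed the widest gap between obese and lean animals among the intracellular enzymes of the 10. It was at 1180, 1231, 1664, 1537 and 1230 CPM in Cmpd 1 rats, against 915, 893, 1103, 883 and 928 CPM in Food matched rats. It was at 1073, 1354, 933, 1034 and 1165 CPM in Obese rats, against 3734, 3095, 4020, 3588 and 3840 CPM in Lean rats. No rat of the obese groups came near the lowest Lean rat. In edgeR it fell 3.29-fold in Obese versus Lean (log2 fold change −1.72, SE 0.11, adjusted p = 5.5e-10), 2.67-fold in Cmpd 1 versus Lean (−1.42, adjusted p = 1e-08) and 3.87-fold in Food matched versus Lean (−1.95, adjusted p = 7.3e-11). Cmpd 1 rats all lay above Food matched rats, 1.45-fold (0.54, SE 0.11, adjusted p = 0.0013), which is under the fold of 1.5. Without Food matched rat 3, the highest of its group, Ces1d passed that threshold too (0.60, adjusted p = 0.0012). Cmpd 1 and Obese overlapped (0.30, SE 0.11, adjusted p = 0.067). The row spans chromosome 19, 15033108 to 15239821, and overlaps LOC501233 on the same strand, which had 60875 reads beside 2084976 for Ces1d.

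Lipe, hormone-sensitive lipase, the main diacylglycerol hydrolase of the fat cell, followed the same order at smaller size. It was at 1128, 1044, 1143, 1447 and 1335 CPM in Cmpd 1 rats, against 833, 759, 891, 839 and 922 CPM in Food matched rats. It was at 920, 1011, 797, 844 and 950 CPM in Obese rats, against 1633, 1522, 1554, 1534 and 1699 CPM in Lean rats. Cmpd 1 rats thus stood between the other obese groups and Lean, overlapping none of them. Lipe fell 1.76-fold in Obese versus Lean (log2 fold change −0.81, SE 0.08, adjusted p = 8.7e-08) and 1.87-fold in Food matched versus Lean (−0.90, adjusted p = 1.4e-08). Cmpd 1 was 1.44-fold above Food matched (0.52, SE 0.08, adjusted p = 0.00025), 1.35-fold above Obese (0.43, adjusted p = 0.0028) and 1.30-fold below Lean (−0.38, adjusted p = 0.00094), each under the fold of 1.5. Food matched and Obese did not separate (−0.09, SE 0.08, adjusted p = 0.75). Lipe lies on chromosome 1, 82248046 to 82266727, minus strand, and the row on its other strand had 205 reads in all.

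Adipocyte markers were also lower in the obese groups. The summed level of 10 adipocyte markers was 20120 to 21350 CPM in Cmpd 1, 18880 to 24100 in Food matched, 20530 to 24380 in Obese and 25050 to 29300 CPM in Lean rats, with none at 0. In Obese versus Lean, 5 of the 10 fell and 1 rose, against 22.3% of all genes (median log2 fold change −0.56). In Cmpd 1 versus Food matched 1 rose and none fell, against 6.19% of all genes (median 0.24). The summed level and the single markers differed in direction there: its median was 20520 CPM in Cmpd 1 and 22360 CPM in Food matched rats, while 8 of the 10 markers had positive log2 fold changes (Adipoq 0.47, Acvr1c 0.73), as Lipe and Ces1d did, and Fabp4 (−0.29) and Lep (−0.55) had negative ones. The part of adipocyte content in the results was not tested.

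Mgll, monoacylglycerol lipase, the last enzyme of the chain, moved the other way from Lipe. It was at 754, 663, 604, 676 and 759 CPM in Cmpd 1 rats, against 841, 734, 825, 873 and 944 CPM in Food matched rats. It was at 993, 761, 744, 785 and 835 CPM in Obese rats, against 536, 559, 706, 690 and 707 CPM in Lean rats. Obese and Lean did not overlap, and Cmpd 1 and Food matched did. The log2 fold change of Mgll was 0.37 in Obese versus Lean (SE 0.10, adjusted p = 0.0035) and −0.29 in Cmpd 1 versus Food matched (SE 0.10, adjusted p = 0.035), neither reaching a fold of 1.5. The lowest Lean values were again those of rats 1 and 2, and without them Mgll in Obese versus Lean came to 0.23 (adjusted p = 0.054). The gene lies on chromosome 4, 120671489 to 120771088.

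Pnpla2 encodes adipose triglyceride lipase, the enzyme that takes the first fatty acid from stored triglyceride and is abundant in fat. In these files it had only 706 reads over the 20 libraries, 10 to 66 in each. Its row lies on chromosome 1, 213997709 to 214002815, within a run of genes (Slc25a22, Pidd1, Rplp2, Pnpla2, Cracr2b, Cd151) whose order recurs 436917 bases further on under mostly LOC names, with LOC100911615 of 2243 bases in the place of Pnpla2 of 2255 bases. Both runs were nearly empty of reads: Rplp2, a ribosomal protein gene, had 370 reads, beside 926914 for its partner gene Rplp0, and LOC100911615 had 64. Genes between the runs spanned a wide range, with 301582 reads for Taldo1 and 154933 for Rnh1, but 685 for Rassf7 and 13 for Lmntd2. Only reads with 1 place in the genome were counted, and a read that matches both runs has more than 1. RefSeq's GRCr8 table holds Pnpla2 once. How alike the sequences of the 2 runs are was not examined, and the values of Pnpla2 are uncertain as a measure of its level.

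**Figure D4:**
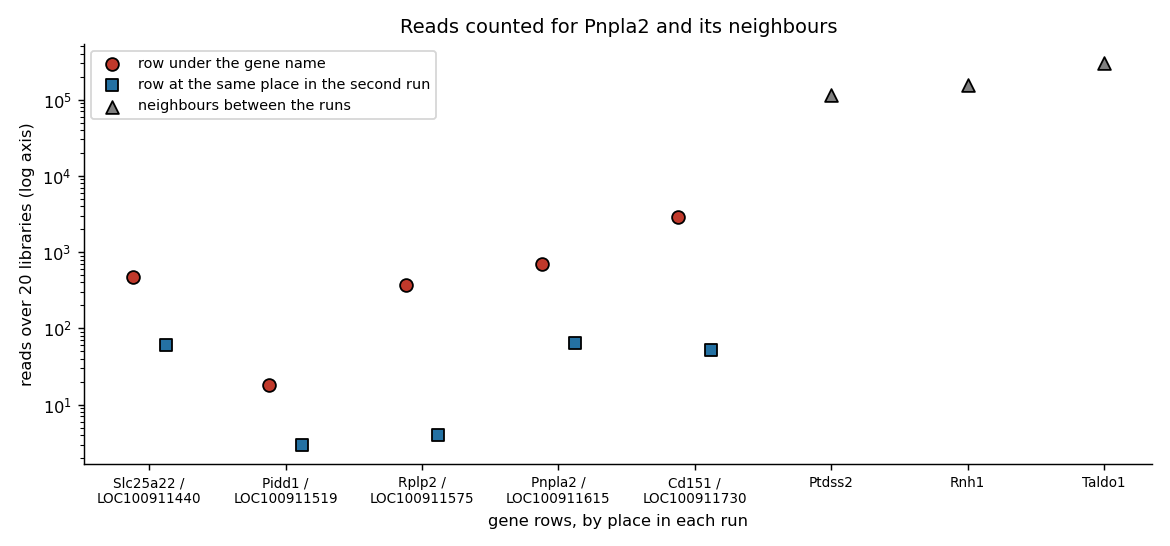
Reads summed over 20 libraries (vertical axis, log scale) for gene rows in the run that holds Pnpla2 (circles), for the rows at the same place in the second run (squares) and for 3 genes picked for their high counts from those between the runs (triangles). Pnpla2 had 706 reads and LOC100911615 had 64, beside 113367 to 301582 for the 3 picked genes; other genes between the runs, not drawn, had far fewer.

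Within that limit, Pnpla2 was at 0.832, 0.754, 0.541, 0.797 and 0.545 CPM in Cmpd 1 rats, against 0.387, 0.479, 0.186, 0.451 and 0.296 CPM in Food matched rats. It was at 0.541, 0.496, 0.175, 0.524 and 0.470 CPM in Obese rats, against 0.626, 0.735, 1.22, 0.940 and 0.948 CPM in Lean rats. Neither pair of groups overlapped. In edgeR the counted reads fell 2.02-fold in Obese versus Lean (log2 fold change −1.01, SE 0.29, adjusted p = 0.0067) and rose 1.91-fold in Cmpd 1 versus Food matched (0.93, SE 0.30, adjusted p = 0.027). The second call for Pnpla2 was lost without any one of Food matched rats 3 and 5 or Cmpd 1 rats 1, 2 and 4 (0.77 to 0.90, adjusted p = 0.0513 to 0.0707), and with the reads of LOC100911615 added (0.81, adjusted p = 0.053). Cmpd 1 versus Obese gave 0.65 (SE 0.29, adjusted p = 0.15).

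Pnpla3 is a relative of Pnpla2 in the patatin family that carbohydrate feeding and insulin induce in rodents. It was called lower than Lean in Cmpd 1 and Food matched rats, and lower than Obese in Cmpd 1 rats only. It was at 107, 83.4, 66.3, 74.2 and 63.8 CPM in Cmpd 1 rats, against 95.4, 56.3, 75.9, 89.7 and 142 CPM in Food matched rats. It was at 227, 143, 113, 99.5 and 134 CPM in Obese rats, against 218, 170, 126, 148 and 190 CPM in Lean rats. Only Cmpd 1 and Lean were without overlap. Pnpla3 fell 1.81-fold in Cmpd 1 versus Obese (log2 fold change −0.86, SE 0.23, adjusted p = 0.018), 2.15-fold in Cmpd 1 versus Lean (−1.11, SE 0.23, adjusted p = 0.00075) and 1.85-fold in Food matched versus Lean (−0.89, SE 0.23, adjusted p = 0.0028). Cmpd 1 versus Food matched gave −0.22 (SE 0.23, adjusted p = 0.56), Food matched versus Obese −0.64 (SE 0.23, adjusted p = 0.29) and Obese versus Lean −0.25 (SE 0.23, adjusted p = 0.40), or −0.11 (adjusted p = 0.78) without Lean rats 1 and 2. The call of Pnpla3 against Obese was lost without Obese rat 1, the highest of its group (−0.63, adjusted p = 0.0585), Cmpd 1 rat 4 (−0.84, adjusted p = 0.0509) or Cmpd 1 rat 5 (−0.79, adjusted p = 0.0506). The gene lies on chromosome 7, 125034764 to 125055976.

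Around these 10 genes, 28 other lipases and lipid esterases were listed, of which 15 were tested. In Obese versus Lean, 3 rose and 2 fell, against 22.3% of all genes, with a list median of 0.03 beside −0.01 for all genes. Lipa, the acid lipase of lysosomes, rose 5.27-fold (607 ± 102 CPM in Obese, 115 ± 31.1 in Lean rats, SD, n = 5 each, edgeR adjusted p = 1.8e-09). Abhd12, a serine hydrolase, rose 2.67-fold and Nceh1, a cholesteryl ester hydrolase of macrophages, rose 3.13-fold, while Ddhd1, a phospholipase, fell 1.56-fold. In Cmpd 1 versus Food matched, 1 rose and 2 fell, against 6.19% of all genes, with a median of 0.14 beside 0.01. Lipa fell 1.69-fold (415 ± 83.9 CPM in Cmpd 1, 700 ± 110 in Food matched rats) and Nceh1 fell 1.61-fold, while Pnpla1, a patatin-family enzyme best known from skin, rose 1.75-fold at a level near 1 CPM (1.22 ± 0.155 CPM in Cmpd 1, 0.697 ± 0.240 in Food matched rats). In Lipa, Cmpd 1 rats stayed above every Lean rat (306 to 500 CPM in Cmpd 1, 88.1 to 152 CPM in Lean rats), unlike Lipg. Of the macrophage markers given above, 5 of 10 rose and 1 fell in Obese versus Lean, against 22.3% of all genes. At an adjusted p under 0.05 and any fold, 7 were higher and 3 lower there, against 48.2% of all genes. In Cmpd 1 versus Food matched, 5 fell and none rose, against 6.19% of all genes. At any fold, 8 were lower and none higher in that comparison, against 22.8% of all genes. The part of macrophage content in the Lipa and Nceh1 results was not tested.

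Of 26 listed regulators of intracellular lipolysis, 25 were tested. In Obese versus Lean, 3 rose and 7 fell, against 22.3% of all genes, with a list median of −0.25 beside −0.01 for all genes. Plin2, a lipid droplet coat protein also made by lipid-laden macrophages, rose 3.71-fold (924 ± 188 CPM in Obese, 249 ± 58.7 in Lean rats, SD, n = 5 each, adjusted p = 3.1e-08). G0s2, the protein inhibitor of adipose triglyceride lipase, fell 1.83-fold, Cidec, which enlarges lipid droplets, fell 1.52-fold, and Hcar1, the lactate receptor that restrains lipolysis, fell 1.75-fold. The β-adrenergic receptors Adrb1 and Adrb3, which switch lipolysis on in the rodent fat cell, fell 2.10-fold (adjusted p = 2e-04) and 2.71-fold (adjusted p = 3.7e-07). Genes that restrain lipolysis and genes that activate it were thus both among those that fell. In Cmpd 1 versus Food matched, 2 rose and 1 fell, against 6.19% of all genes, with a median of 0.17 beside 0.01. Adrb1 and Adrb3 rose 2.02-fold (6.20 ± 1.79 CPM in Cmpd 1, 3.06 ± 0.705 in Food matched rats, adjusted p = 0.0014) and 1.53-fold (60.3 ± 10.2 CPM in Cmpd 1, 39.4 ± 9.81 in Food matched rats, adjusted p = 0.0089). Adrb3 ranged from 50.8 to 77.6 CPM in Cmpd 1 and from 30.9 to 54.7 CPM in Food matched rats, against 120 to 152 CPM in Lean rats. G0s2 (0.53, adjusted p = 0.00034) and Hcar1 (0.39, adjusted p = 0.0033) were also higher on the log2 scale, under the fold of 1.5. Plin2 fell 1.99-fold (567 ± 100 CPM in Cmpd 1, 1126 ± 227 in Food matched rats).

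Of 22 listed extracellular or secretory partners of lipoprotein lipase beyond the 10 genes, 17 were tested. In Obese versus Lean, 2 rose and 1 fell, against 22.3% of all genes, with a median of 0.12 beside −0.01. The heparan sulfate proteoglycan cores Sdc1 and Sdc4 rose 2.65-fold (105 ± 13.1 CPM in Obese, 39.4 ± 19.8 in Lean rats) and 2.45-fold (43.8 ± 13.8 CPM in Obese, 17.8 ± 4.53 in Lean rats). Pcsk6, a proprotein convertase able to cleave lipoprotein lipase, fell 2.30-fold (31.98 ± 9.57 CPM in Obese, 73.7 ± 20.8 in Lean rats). In Cmpd 1 versus Food matched, Sdc1 fell 2.35-fold (65.9 ± 16.6 CPM in Cmpd 1, 155 ± 38.4 in Food matched rats, adjusted p = 0.0011) and Sdc4 fell 1.74-fold (25.2 ± 3.83 CPM in Cmpd 1, 43.9 ± 8.84 in Food matched rats, adjusted p = 0.0048). The other 15 did not pass the threshold, which 6.19% of all genes passed. Neither comparison gave a call for Lpl, Lmf1, Gpihbp1 or Angptl4.

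**Figure D5:**
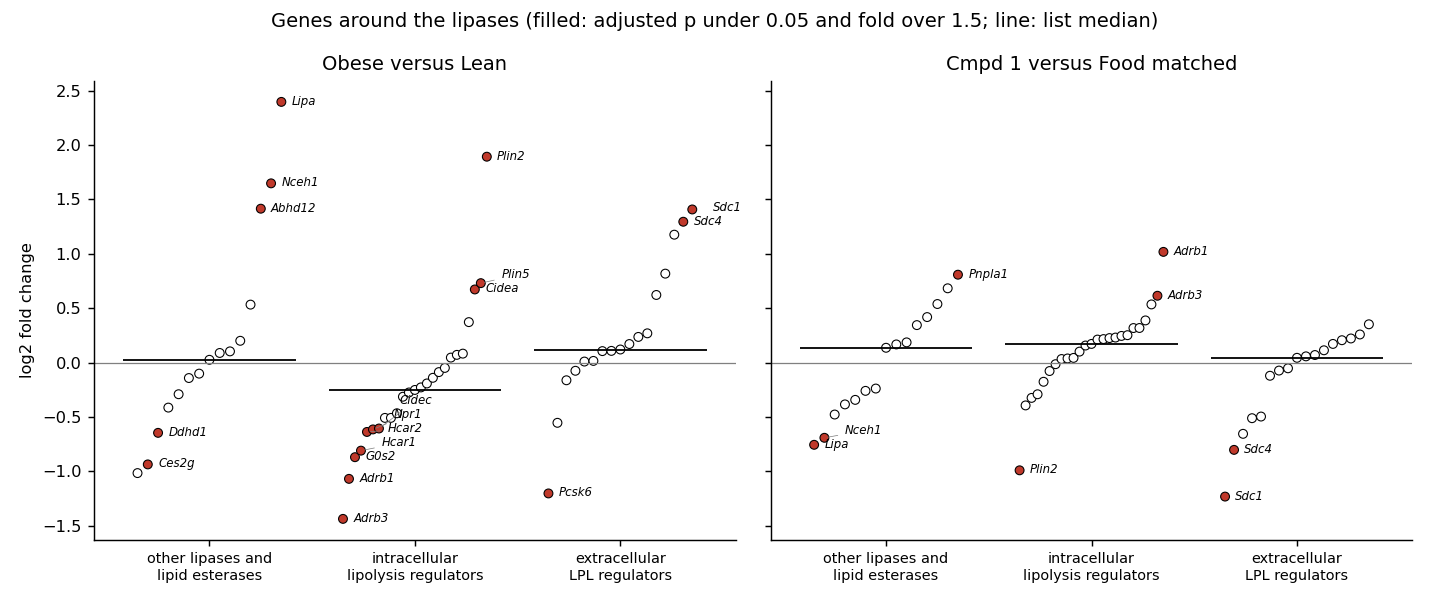
Log2 fold changes (vertical axis) of the tested genes of 3 lists in Obese versus Lean (left) and Cmpd 1 versus Food matched (right), ordered within each list; filled and named points passed an adjusted p under 0.05 and a fold over 1.5, and lines are list medians. Nceh1 lay at 1.65 on the left and −0.69 on the right, and Plin2 at 1.89 and −0.99.

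The genes whose profile over the 20 libraries lay nearest to single members of the 10 were found from the root mean square difference of log2 CPM after each profile was centred on its mean. Lipe was followed most closely by Aldh2 (0.09) and Eci1 (0.09), and Ces1d by Mc2r, a melanocortin receptor (0.19), and Slc25a23 (0.19). Lpl was nearest to Arf4 (0.10) and Vcl (0.10), and Gpihbp1 to Chn1 (0.11) and Ceacam1 (0.12). Pnpla3 was nearest to Esm1 (0.33) and Ldb3 (0.34). For Lipg the nearest were Cd300e (0.58) and Meox1 (0.62), against a spread of Lipg itself of 1.20 on the same scale. The spread was 0.38 for Lipe, 0.78 for Ces1d, 0.18 for Lpl, 0.19 for Gpihbp1 and 0.58 for Pnpla3. Lpl and Gpihbp1 thus varied little themselves, and their small differences do not mark a close match.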

How the data were processed

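Gene counts came from iWAT of 20 ZSF1 rats, 5 per group, grouped by the sample titles. The authors deposited raw counts per gene from featureCounts over STAR alignments, uniquely mapped reads only. In the submitters' notes on processing the versions are 2.5.2 for STAR and 1.5.1 for Subread, and the build listed is GRCh38, whereas the methods and the table's coordinates belong to rat assembly rn6. Counts from sequence shared by near-identical copies are therefore missing or split.

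One edgeR 4.0.16 quasi-likelihood model of the 4 groups was fitted (R 4.3.3, TMM), p-values were adjusted over 17653 genes, and a gene was called at an adjusted p under 0.05 and a fold over 1.5. SE is the absolute log2 fold change divided by the square root of F. CPM used TMM library sizes, RPKM the table's gene lengths, and log2 CPM a prior count of 2. Each rat is 1 library, and the edgeR p-values set a difference between groups against the spread between rats, estimated over the 4 groups. The fit was tested on simulated data.

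Alternatives were library size alone, DESeq2 1.42.0, limma-voom 3.58.1, no count filter, a mean of at least 1 CPM, only the groups compared, each rat left out, a replicate block, no fold threshold and Lean rats 1 and 2 left out. Genes named beyond the 10 were, per list and main comparison, up to 4 calls with the smallest adjusted p, and the 2 nearest profiles. Members of a marker list that are named, and the genes around Pnpla2, were chosen after their values were seen. The 10 genes and the lists were chosen with earlier results of these data known. The nearest profiles of Mgll are not reported here.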

Additional observations from a re-analysis of the deposited data

Results flagged for a closer look

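Each of the 10 genes was searched in each of the 4 groups for a rat that stood apart from the other 4, by the share of the group's range taken up by its gap to the nearest rat. Of 40 gene and group pairs, 2 were marked, and chance alone marks about 1 in 20. Obese rat 3 had 0.175 CPM of Pnpla2, where the other Obese rats had 0.470 to 0.541 CPM. Food matched rat 3 had 1103 CPM of Ces1d, where the other Food matched rats had 883 to 928 CPM.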

How the results depend on the processing

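Of 1056 alternative values for the 10 members over 6 comparisons, 1005 kept direction and side of the threshold, 9 lost a call, 1 gained one, none with a call reversed, and 41 changed sign with no call in either setting. For members called in Cmpd 1 versus Food matched, the count of 2 became 1 with a mean of at least 1 CPM, where Pnpla2 was not tested, and 5 with no fold threshold. Leaving out single rats gave 1 to 2 members called in Cmpd 1 versus Food matched, through Pnpla2, and 1 to 2 in Cmpd 1 versus Obese, through Pnpla3. Without Food matched rat 3, Pnpla2 lost its call in Cmpd 1 versus Food matched and Ces1d gained one. The Gpihbp1 value relative to endothelial markers in Obese versus Lean was 0.026 (exact permutation test, adjusted p = 0.833) with the median of the markers, against 0.25 with the mean; the cause was not tested. Over all genes, Food matched versus Obese gave 0 calls in edgeR, 69 in DESeq2, 10 in limma-voom, 2 with the replicate block and 93 without Food matched rat 5.

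Rat numbers name animals and do not pair them: deviations of same-numbered rats correlated at −0.10 to 0.15, and 3 of 20 rats were closest to a rat of the same number. With the number as a replicate block, members called stayed at 4 in Obese versus Lean and 2 in Cmpd 1 versus Food matched, and no call of a member changed.

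Lipg and Pnpla2 rest on few reads, at most 176 and 66 per library, and small changes in them were not detectable at this depth.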

Other observations

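In the lists of neighbouring genes, 3 further genes are given against Lean; the comparisons use the same Lean rats. Ces2g, a carboxylesterase related to Ces1d, averaged 40.9 ± 4.24 CPM in Cmpd 1, 28.2 ± 5.86 in Food matched, 37.2 ± 2.45 in Obese and 71.1 ± 3.94 CPM in Lean rats (SD, n = 5 each), and was called lower than Lean in each obese group. Plin5, a lipid droplet protein of oxidative tissues, averaged 15.0 ± 3.78 CPM in Cmpd 1, 18.7 ± 3.10 in Food matched, 18.6 ± 2.74 in Obese and 11.2 ± 1.28 CPM in Lean rats, and was called higher than Lean in Food matched and Obese rats. Cidea, a lipid droplet protein of brown and beige fat, averaged 164 ± 21.8 CPM in Cmpd 1, 139 ± 27.0 in Food matched, 149 ± 14.3 in Obese and 93.7 ± 12.9 CPM in Lean rats, and was called higher than Lean in Cmpd 1 and Obese rats but not in Food matched rats (log2 fold change 0.56, under the fold of 1.5). Ucp1, the defining gene of brown fat, stayed at or under 1.29 CPM in every rat. These 3 genes were chosen after their values were seen.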
